A study of Mus musculus with 6 samples.

Results

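The proteasome genes were taken as all genes whose current symbol starts with Psma, Psmb, Psmc, Psmd or Psmg, together with Psme3, Psme4 and Psmf1, without the interferon-inducible subunits Psmb8, Psmb9 and Psmb10. The rule uses names and no measured value, and it found 43 of the 12393 genes tested on 6 Affymetrix mouse arrays. Psmb11, the thymus-specific beta subunit, had no probe set of its own. Psmc3ip was taken in by its symbol although its product is a partner in meiotic recombination and no proteasome subunit, so 42 of the 43 belong to the proteasome or its assembly.

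The miR-34a samples, with 3 arrays, were 344SQ cells with inducible overexpression of the microRNA miR-34a, and the vector samples, also with 3 arrays, were 344SQ cells carrying a control vector. 344SQ is a metastatic mouse lung cancer line of the KP type, described as high in Zeb1, a repressor of epithelial genes, so every sample shares the genotype of that single line. It is unsettled what was arrayed: primary tumours from injected mice are named by the design text and by the miR-34a titles, whereas the source and growth fields name the cultured line. The sources used here do not give the inducing agent, its dose or the age of any host animal. No label says that replicates are separate animals or cultures, and a p-value below therefore reflects only how these samples spread, which may be technical.

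The proteasome is the cell's main machine for breaking down proteins tagged with ubiquitin. Its 20S core is a stack of rings: alpha subunits (Psma) form the gated outer rings, and beta subunits (Psmb) form the inner rings that hold the cutting sites. The 19S cap has a base of ATPases (Psmc) that unfold the protein and a set of non-ATPase subunits (Psmd) that bind ubiquitin, remove it and brace the particle, while Psmg proteins and a few Psmd proteins are chaperones that help to assemble the parts. When proteasome activity falls short in mammalian cells, the transcription factor NFE2L1 is known to raise the genes of core and cap together.

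The agent under test is shown by its mature sequence, with the seed that pairs with target messages (bases 2 to 8) in capitals. The RefSeq table for GRCm38.p6 places mmu-miR-34a-5p at chr4:150068473-150068494 on the plus strand. Of the 1738 mature mouse entries in that table, 4 carry this seed, and all 4 are shown so that the shared bases can be seen.
mmu-miR-34a-5p: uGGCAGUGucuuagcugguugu
mmu-miR-34b-5p: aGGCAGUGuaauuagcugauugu
mmu-miR-449a-5p: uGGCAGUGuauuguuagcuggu
mmu-miR-449c-5p: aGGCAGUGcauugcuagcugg
The level of mature miR-34a was not measured on these arrays, and sites for this seed in the messages of the proteasome genes were not analysed here.

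The deposited values are intensities on a linear scale, and changes are given as miR-34a minus vector on the log2(intensity + 16) scale, where 1 is a 2-fold difference. The array medians over all probe sets ran from 466.7 to 484.2. The arrays were not equally alike: the miR-34a arrays correlated with each other at 0.992 to 0.996, vector 2 with vector 3 at 0.993, and vector 1 with vector 2 and vector 3 at 0.969 and 0.972 (r across genes on the log2 scale). Vector 1 stood apart on the leading principal component, at -43.3, against 16.3 to 21.7 for the miR-34a arrays and -8.75 and -5.42 for vector 3 and vector 2. The epithelial tumour markers summed to 72622 to 76743 in the miR-34a arrays and 69198 to 80905 in the vector arrays. Of these, 0 of 10 passed the test, and the lung lineage markers Sftpc and Nkx2-1 were dim while Krt8, Krt18 and Cdh1 were bright. The sum hides opposite shifts in vector 1, in genes named after their values were seen. Epcam had 305 in vector 1, against 951 to 1463 in the other arrays. Krt19 had 19739 in vector 1, against 11682 to 12905. Genes that mark other cell types were also read, with a lowest marker value of 21.5, and those as dim as this are not told apart from background. The 15 fibroblast markers summed to 58553 to 81715 in the miR-34a arrays and 27589 to 64080 in the vector arrays, with vector 1 at the low end and 4 markers called higher. The 14 macrophage markers summed to 30359 to 34999 in the miR-34a arrays and 20743 to 29727 in the vector arrays, with 3 called higher and 1 lower. The 6 measured neutrophil markers ran the other way, with sums of 2135 to 2453 in the miR-34a arrays and 3048 to 9775 in the vector arrays, vector 1 at the high end and 1 marker called lower. Of 9 mast cell markers 4 were called higher, and of 10 T and NK cell, 10 endothelial and 10 skeletal muscle markers 0 were called. For comparison, 6.50% of all genes tested were called higher and 5.25% lower. The control probe sets at the 3′ and 5′ ends of Gapdh differed by 0.10 to 0.12 in the miR-34a arrays and by -0.05 to 0.07 in the vector arrays, and those of Actb by 0.54 to 0.59 in the miR-34a arrays and by 0.34 to 0.60 in the vector arrays (log2 of the 3′ over the 5′ end). Fewer cells of a type and less RNA per cell cannot be told apart in such bulk samples, and the part these markers and the RNA controls play in the results on proteasome genes was not tested.

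The count of calls was too small to set the proteasome genes apart from all genes, and every estimated change was less than 2-fold. Of 43, 3 passed an adjusted p of 0.05 in limma, or 6.98%, against 11.7% of all genes tested. Psmb6, a catalytic core subunit, was the 1 gene called higher (6.50% of all genes were called higher), and the outer ring gene Psma1 and the cap gene Psmd7 were the 2 called lower (5.25% of all genes were called lower). With each array centred on its median, 0 were called higher and 4 lower (Psma1, Psmd7, Psmd12 and Psme3), or 9.30%, where 11.6% of all genes were called. Most of the proteasome genes are bright, so the lower 50% of genes by level were also left out. Of the 43, 42 stayed and 4 were called (9.52%), where 21.4% of the genes kept were called. Each of the 3 calls was lost in some of the 6 refits that left out 1 array: Psmb6 passed only without vector 1, Psmd7 only without vector 1 or without vector 2, and Psma1 in none. Across the 43 genes the 95% intervals of the change lay between -0.82 and 0.60, so 0 reached a 2-fold difference in either direction.

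While 3 of the genes passed, the 2 groups were often separate. In 26 of the 43 genes (60.5%) all 3 miR-34a values lay on 1 side of all 3 vector values, against 34.9% of all genes. The miR-34a values were the higher ones in 18 (41.9%), against 20.8% of all genes, and the lower ones in 8 (18.6%), against 14.0%. An unadjusted p under 0.05 was reached by 20 genes (46.5%), 12 above 0 and 8 below, against 28.2% of all genes. The change was above 0 in 28 genes (65.1%), against 54.3% of all genes. Their median change was 0.12, against 0.02 for all genes, and the median size of change without regard to sign was 0.22, against 0.15. The median spread within groups, as a pooled SD on the log2 scale, was 0.10, against 0.13. These counts depend on the scaling. With every array's log2 values centred on its median, the median of all genes shifts to -0.07, and the proteasome genes then number 22 above 0 and 21 below, with a median of 0.03 and 14 with separate groups (32.6%, against 36.9% of all genes). Of those 14 the miR-34a values were higher in 4 and lower in 10. This centring lowers every change by the same amount, as from 0.33 to 0.23 for Psmb6. Its medians are therefore not those over all probe sets given above, which lie closer together. Members that share a complex are not replicates of the condition, and the counts describe these 6 arrays. Of the 43 genes, 42 lay in the upper 50% of genes by level. The share of separate groups among genes of similar level is not given here, so the part that level plays was not tested.

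**Figure D1:**
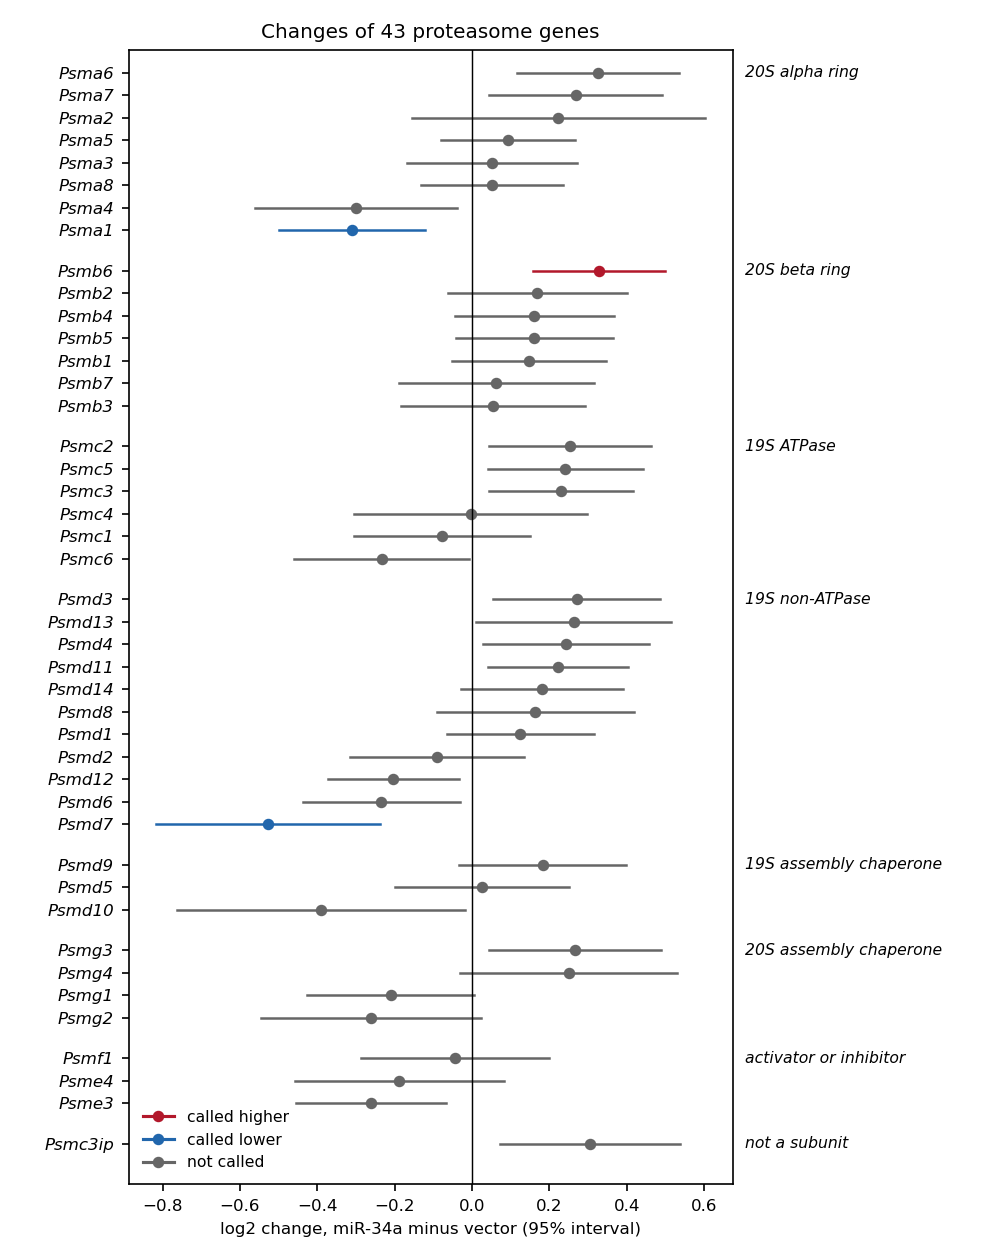
Change of each proteasome gene, as miR-34a minus vector on the log2(intensity + 16) scale, ordered within classes by role; bars are 95% intervals from limma (3 arrays per group). Most points lie within 0.3 of 0 in both directions, and Psmd7 lies lowest at -0.53.

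Taken by array, the median gene stood at 0.11, 0.10 and 0.11 in the miR-34a arrays and at 0.05, -0.06 and 0.02 in the vector arrays, as log2 deviations from the mean of the vector arrays. For all genes those medians were -0.0037, 0.03 and 0.05 in the miR-34a arrays and 0.04, -0.02 and -0.01 in the vector arrays. Vector 2 held the lowest of the 6 values in 15 of the 43 genes, and miR-34a 3 held the highest in 13. Without vector 2 the median change was 0.07.

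**Figure D2:**
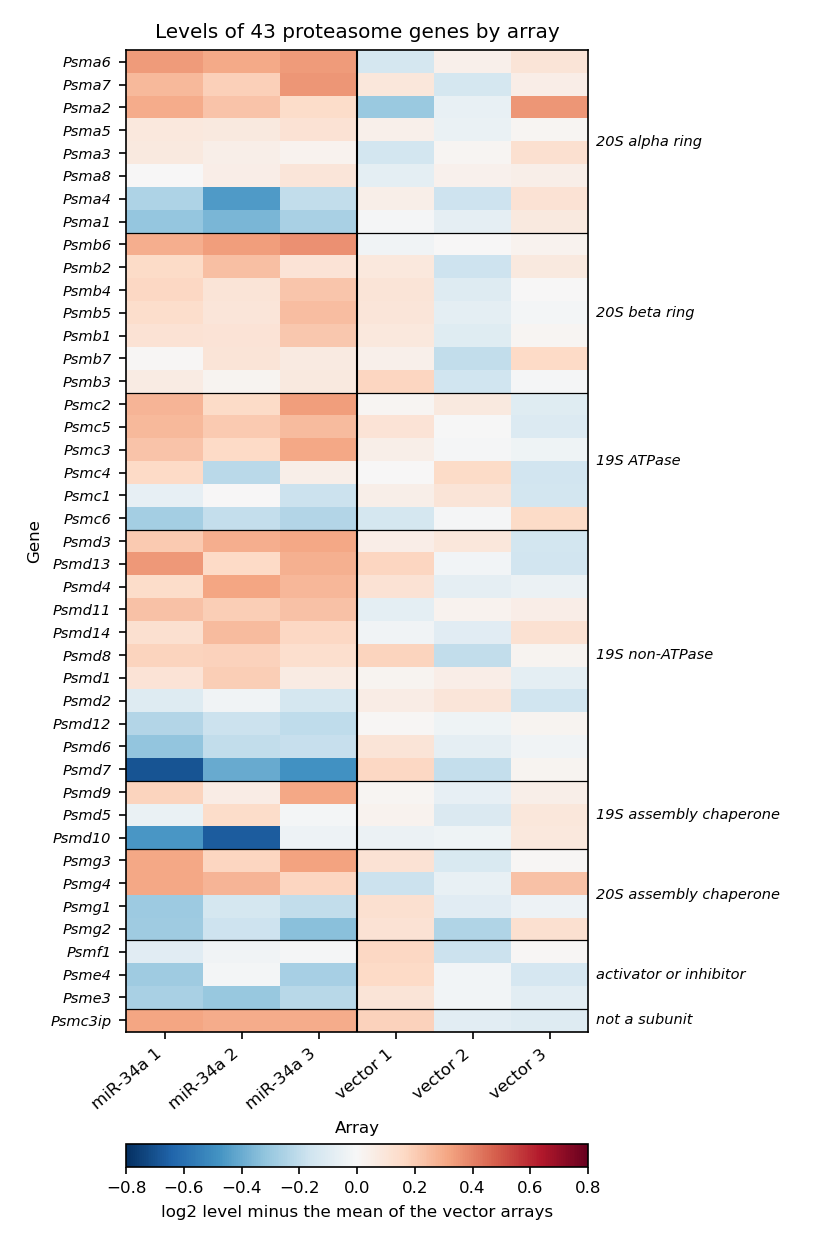
Level of each proteasome gene (vertical) in each array (horizontal), coloured as log2(intensity + 16) minus the mean of the vector arrays, with the miR-34a arrays on the left. Red is above and blue below the vector mean; the beta ring class is mostly red in the miR-34a arrays, with shifts as small as 0.06 in Psmb7 and Psmb3.

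In the inner, catalytic ring of the core, all 7 measured beta subunits had changes above 0, with a median of 0.16, but only Psmb6 passed the test. Psmb6, the caspase-like cutting subunit, had intensities of 6279, 6471 and 6607 in the miR-34a arrays, against 5023, 5148 and 5224 in the vector arrays. The groups were well separated and each was tight. The change was 0.33 with a standard error of 0.07 (25.6% higher, 95% interval 0.16 to 0.50, adjusted p = 0.0314). In the refits that left out vector 2, vector 3 or any miR-34a array its adjusted p ran up to 0.131, and with median centring the change was 0.23 with an adjusted p of 0.0802.

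The other catalytic subunits did not pass. Psmb5, the chymotrypsin-like subunit that proteasome inhibitor drugs bind, had 5944, 5780 and 6406 in the miR-34a arrays, against 5776, 5105 and 5338 in the vector arrays. These groups were separate by a gap of a few intensity units, and the change of 0.16 had an interval of -0.04 to 0.36 (adjusted p = 0.277). Psmb7, the trypsin-like subunit, had 4930, 5262 and 5131 in the miR-34a arrays, against 5027, 4256 and 5459 in the vector arrays, so the groups overlapped (change 0.06, adjusted p = 0.756). Psmb2, a non-catalytic member of the ring, showed the largest change among those that did not pass: 4098, 4365 and 3977 in the miR-34a arrays, against 3914, 3281 and 3896 in the vector arrays. Its change was 0.17 (adjusted p = 0.314), and vector 2 was the low array. Psmb1, Psmb3 and Psmb4, structural members of the same ring, had changes of 0.15, 0.06 and 0.16, with separate groups in Psmb1 alone. After median centring 5 of the 7 beta subunits lay above 0 and 2 below, with a median of 0.07. Leaving out vector 2 likewise gave 5 above and 2 below, with a median of 0.10, and array weights gave 6 and 1, so the shared sign of the ring depends on the scaling and on that array.

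The outer ring was mixed. Of the 8 alpha subunit genes, 6 had changes above 0 and 2 below, with a median of 0.07, and 1 passed. Psma1 had 4348, 4190 and 4505 in the miR-34a arrays, against 5363, 5138 and 5699 in the vector arrays. All miR-34a values lay below all vector values, and the change was -0.31 with a standard error of 0.08 (95% interval -0.50 to -0.12, adjusted p = 0.0496). This sat at the threshold, and without vector 1 the adjusted p was 0.0504. Its other probe sets averaged 10.1 to 18.2 intensity units per group, near the bottom of the scale, so they give no check of the call.

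Psma6 had the largest change among the alpha genes that did not pass: 7112, 6918 and 7097 in the miR-34a arrays, against 5087, 5766 and 6023 in the vector arrays. The groups were separate, with vector 1 lowest, and the change was 0.33 (adjusted p = 0.0582), and it passed with a pseudocount of 64 (adjusted p = 0.0447). Psma4 and Psma7, named after their values were seen, went opposite ways although both belong to the same ring. Psma4 had a change of -0.30 (adjusted p = 0.129) and Psma7 one of 0.27 (adjusted p = 0.116), each with separate groups. Psma2 had a change of 0.22 with overlapping groups, and Psma3 and Psma5 changed by 0.05 and 0.09 without passing. Psma8, which in mice takes the place of Psma7 in the testis, was dim at 84.0, 87.3 and 90.5 in the miR-34a arrays and 78.3, 86.1 and 86.7 in the vector arrays.

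In the cap's base, the 6 ATPase genes divided evenly by sign and 0 passed. Psmc2 had 6057, 5579 and 6341 in the miR-34a arrays, against 5079, 5291 and 4697 in the vector arrays, with separate groups and a change of 0.25 (adjusted p = 0.114). Psmc3 and Psmc5 had changes of 0.23 and 0.24, also with separate groups. Psmc6 went the other way, with 3796, 4014 and 3894 in the miR-34a arrays against 4156, 4564 and 5094 in the vector arrays, and a change of -0.23 (adjusted p = 0.163). Psmc1 and Psmc4 lay at -0.08 and -0.0032 with overlapping groups and standard errors of 0.10 and 0.13, so their signs are not settled. The ATPases form a single ring with each type present. Their estimated changes did not share a sign here, but as 0 passed, a difference between them is not shown.

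Among the 11 non-ATPase subunits of the cap, 7 had changes above 0 and 4 below, with a median of 0.16, and Psmd7 was the 1 that passed. Psmd7, the structural partner of the deubiquitinase Psmd14, had 1412, 1726 and 1634 in the miR-34a arrays, against 2575, 2005 and 2331 in the vector arrays. All miR-34a values were below all vector values, and both groups were spread. The change of -0.53 was the furthest from 0 of the 43 genes (standard error 0.12, 95% interval -0.82 to -0.24, adjusted p = 0.0370). Its other probe sets gave -0.22 and -0.06, and with the mean of all its probe sets the adjusted p was 0.170. Those probe sets were dimmer, with group means of 97.4 to 116 and 330 to 345 intensity units. The probe set used had 1591 and 2304, so the others are a weak check of the call.

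Psmd14, the deubiquitinase that strips ubiquitin from the substrate, had 4451, 4856 and 4583 in the miR-34a arrays, against 3994, 3827 and 4438 in the vector arrays. The groups were separate but close, and the change of 0.18 did not pass (adjusted p = 0.233). Psmd4, a ubiquitin receptor, had 5796, 6540 and 6309 in the miR-34a arrays, against 5690, 4989 and 5071 in the vector arrays (change 0.24, adjusted p = 0.133). Psmd2, a scaffold of the base like Psmd1, had 5094, 5369 and 4958 in the miR-34a arrays, against 5708, 5857 and 4892 in the vector arrays. Its groups overlapped, with a change of -0.09 (adjusted p = 0.595), while Psmd1 had a change of 0.12. Psmd3 had the largest change of the class that did not pass, with 3375, 3579 and 3616 in the miR-34a arrays, against 3027, 3113 and 2634 in the vector arrays (0.27, adjusted p = 0.106).

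The lid, the module that carries Psmd7 and Psmd14, held genes of both signs. Psmd3, Psmd8, Psmd11, Psmd13 and Psmd14 had changes of 0.16 to 0.27, and Psmd6, Psmd7 and Psmd12 changes of -0.53 to -0.20. Sem1, the small lid subunit that the symbol rule does not reach, fell: it had 6458, 6085 and 6229 in the miR-34a arrays, against 9036, 7776 and 7831 in the vector arrays. Its change was -0.39 with a standard error of 0.09 (adjusted p = 0.0358), and the call was lost in 5 of the 6 refits that left out an array, with an adjusted p of up to 0.132.

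The chaperones showed no call. Of those of the cap, Psmd10 (gankyrin) had 881, 762 and 1187 in the miR-34a arrays, against 1179, 1193 and 1294 in the vector arrays, so that 1 miR-34a array reached the vector range. Its change of -0.39 had an adjusted p of 0.160. Psmd9 and Psmd5, the other cap chaperones, had changes of 0.18 and 0.03. Psmg1 and Psmg2 form 1 chaperone pair of the alpha ring and Psmg3 and Psmg4 another. Psmg1 had 1611, 1787 and 1722 in the miR-34a arrays, against 2164, 1852 and 1922 in the vector arrays (change -0.21, adjusted p = 0.189). Psmg2 had 1068, 1161 and 1032 in the miR-34a arrays, against 1413, 1100 and 1429 in the vector arrays (change -0.26, adjusted p = 0.210). In the other pair both values were above 0. Psmg3 had 1326, 1201 and 1336 in the miR-34a arrays, against 1158, 977 and 1072 in the vector arrays (change 0.27, adjusted p = 0.116). Psmg4 had 1302, 1269 and 1185 in the miR-34a arrays, against 928, 1004 and 1238 in the vector arrays (change 0.25, adjusted p = 0.222). The groups were separate in Psmg1 and Psmg3 and overlapped in Psmg2 and Psmg4.

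At the probe sets used, the 3 genes of activators and the inhibitor had changes below 0, and 0 passed. Psme3, which encodes the nuclear activator PA28gamma, had 687, 668 and 708 in the miR-34a arrays, against 890, 814 and 781 in the vector arrays. The groups were separate, with a change of -0.26 (adjusted p = 0.0883), and with median centring it passed. Psme4, the activator PA200, had 2641, 3180 and 2673 in the miR-34a arrays, against 3594, 3161 and 2929 in the vector arrays (change -0.19, adjusted p = 0.334). Its other probe sets gave -0.64 and -0.16. Psmf1, the inhibitor PI31, had 756, 791 and 803 in the miR-34a arrays, against 908, 715 and 811 in the vector arrays (change -0.04, adjusted p = 0.827). Its other probe sets gave 0.25, 0.29 and -0.03, and the mean of all its probe sets gave 0.11. Without vector 1 its change was 0.04, so the sign shared by the class depends on the probe set and on that array. Psmc3ip, the gene that belongs to the list by name alone, had 1097, 1086 and 1085 in the miR-34a arrays, against 1002, 827 and 819 in the vector arrays (change 0.30, adjusted p = 0.0933).

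Leaving out vector 1, the array that stood apart, gave 5 calls among the 43 genes (11.6%), where 17.2% of all genes were called: Psmb6, Psmc5, Psmd13 and Psmc3ip higher and Psmd7 lower. Leaving out vector 2 gave 1 call, Psmd7, where 10.1% of all genes were called. Leaving out vector 3 gave 0, where 5.09% of all genes were called, and leaving out any of the miR-34a arrays gave 0, where 1.82% to 5.38% were called. Array weights, which gave vector 1 a weight of 0.267 and vector 3 one of 2.70, gave 17 calls (39.5%), 11 higher and 6 lower, where 26.1% of all genes were called.

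Of the 43 genes, 21 had more than 1 probe set, and in 5 of these the changes did not share a sign: Psma1, Psma5, Psmd9, Psmd11 and Psmf1. For Psma1 the opposite sign is a change of 0.0032 with a standard error of 0.22 in a probe set at the bottom of the scale, and no disagreement can be read from it. Psmd11 had 6 probe sets with changes from -0.24 to 0.45. Those below 0 (-0.13 and -0.24) were its dimmest, with group means of 284 to 422 intensity units. The others, with group means of 1601 to 6048, all lay above 0, from 0.17 to 0.45. The probe sets of Psme4 all lay below 0, from -0.64 to -0.16, as did those of Psme3, from -0.40 to -0.11. For Psma6 all 4 lay above 0, from 0.11 to 0.35. Probe sets can read different ends or forms of a message, and for the other genes of this paragraph the levels of the probe sets are not given.

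**Figure D3:**
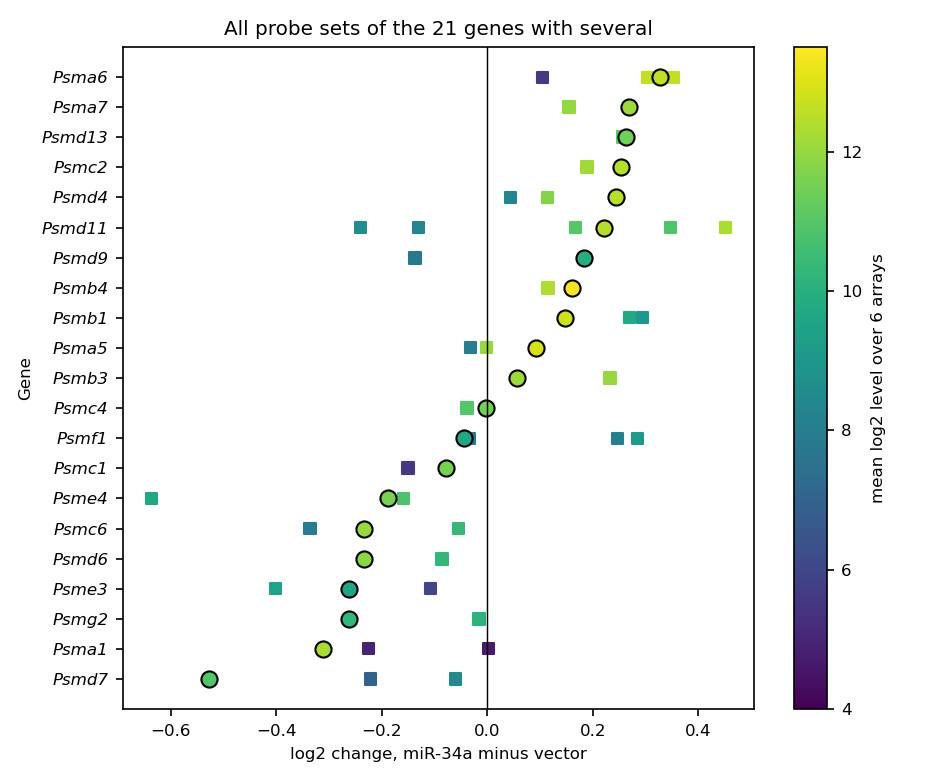
Change of every probe set, as miR-34a minus vector on the log2(intensity + 16) scale, for the 21 genes with more than 1 probe set; circles mark the probe set used, squares the others, and colour the mean log2 level over the 6 arrays. The points spread on both sides of 0 for Psmd11 and lie on 1 side for Psma6, Psme3 and Psme4.

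Partners and regulators of the proteasome were read from the same fit. On a list of 28 partners and regulators, 23 were measured, 1 rose and 4 fell. Over all genes 6.50% were called higher and 5.25% lower. The gene that rose was Nfe2l1, the transcription factor known to drive proteasome genes. It had 2192, 2593 and 2130 in the miR-34a arrays, against 1167, 1471 and 1296 in the vector arrays. The groups were far apart, with a change of 0.81 (standard error 0.12, adjusted p = 0.0107). The call was lost in 1 of the refits that left out an array, without miR-34a 1 (adjusted p = 0.0535). Its relative Nfe2l2 had a change of -0.21 and did not pass (adjusted p = 0.0972).

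The genes that fell were Ubqln2, Uchl5, Ufd1 and Sem1. Ubqln2, a shuttle that carries ubiquitinated proteins to the cap, had 2832, 2745 and 3078 in the miR-34a arrays, against 4372, 4894 and 4464 in the vector arrays. Its change was -0.66 (standard error 0.09, adjusted p = 0.00808), and it kept an adjusted p of at most 0.0496 whichever array was left out. With the mean of all its probe sets the change was -0.32 and the adjusted p 0.0814. The other probe sets of Ubqln2 were dimmer, with group means of 216 to 251 and 96.1 to 103 intensity units, against 2885 and 4577. Uchl5, a deubiquitinase of the cap, had 2085, 2442 and 2073 in the miR-34a arrays, against 3230, 2951 and 3264 in the vector arrays (change -0.52, adjusted p = 0.0199, up to 0.0943 without an array). Ufd1, a cofactor of the Vcp segregase, had 1701, 1536 and 1511 in the miR-34a arrays, against 2144, 1929 and 2293 in the vector arrays (change -0.42, adjusted p = 0.0364, up to 0.143 without an array). Its other probe set gave -0.01, and with the mean of both the change was -0.22 and the adjusted p 0.202. Usp14, the other deubiquitinase of the cap, did not pass (change -0.09, adjusted p = 0.499). Its other probe sets gave -0.35 (standard error 0.09) and 0.18 (standard error 0.13), so its direction depends on the probe set. Pomp, the maturation factor of the core, had 5067, 4391 and 4818 in the miR-34a arrays, against 5668, 5595 and 6088 in the vector arrays (change -0.28, adjusted p = 0.0839, and 0.0444 with median centring). No probe set was annotated to Adrm1 or Psme2 alone, and of the 6 genes for ubiquitin and its activating enzymes 0 were measured.

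**Figure D4:**
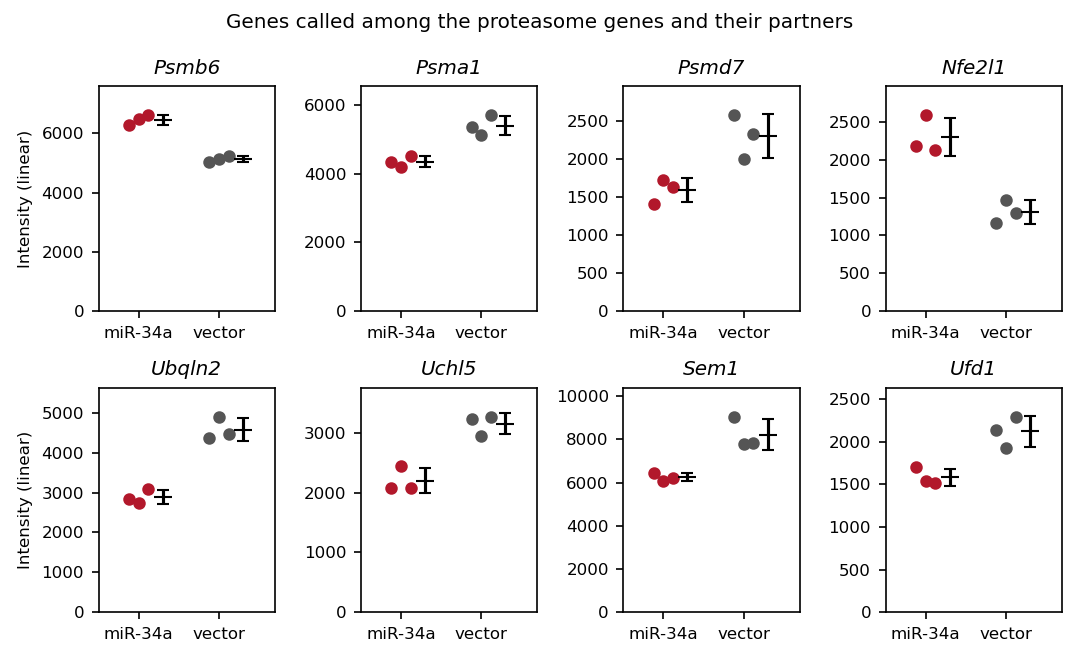
Intensity on a linear scale (vertical) in each array (points) of the miR-34a and the vector group (horizontal), for the 3 proteasome genes called and the 5 called among partners and regulators; crosses with whiskers are the group mean and SD (3 arrays per group). Psmb6 and Nfe2l1 lie higher and the other genes lie lower in the miR-34a arrays, with no overlap in any panel.

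The interferon-inducible subunits, which replace the constitutive cutting subunits in immune cells and inflamed tissue, were left out by the rule. At the probe set used for each gene they had larger estimated changes than any of the 43 genes, though another probe set of Psme4 gave -0.64. Of 4 measured inducible genes 2 rose, where 6.50% of all genes were called higher. Psmb10, which takes the place of Psmb7, had 5158, 4314 and 4347 in the miR-34a arrays, against 1782, 2432 and 3078 in the vector arrays (change 0.95, adjusted p = 0.0259, up to 0.105 without an array). Psme1, a subunit of the interferon-inducible activator PA28, had 8888, 7106 and 8203 in the miR-34a arrays, against 4904, 5366 and 5723 in the vector arrays. The groups were separate in both genes, and Psme1 had a change of 0.59 (adjusted p = 0.0197, up to 0.0915 without an array). Psmb8, which replaces Psmb5, had 6481, 4791 and 4870 in the miR-34a arrays, against 351, 2982 and 4143 in the vector arrays. Psmb9, which replaces Psmb6, had 3214, 2588 and 2303 in the miR-34a arrays, against 282, 1442 and 2079 in the vector arrays. In both genes vector 1 was far below the other vector arrays, and neither passed (adjusted p = 0.238 for Psmb8 and 0.197 for Psmb9). Macrophage and fibroblast markers, given above, were lowest in the same vector 1, and their part was not tested.

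**Figure D5:**
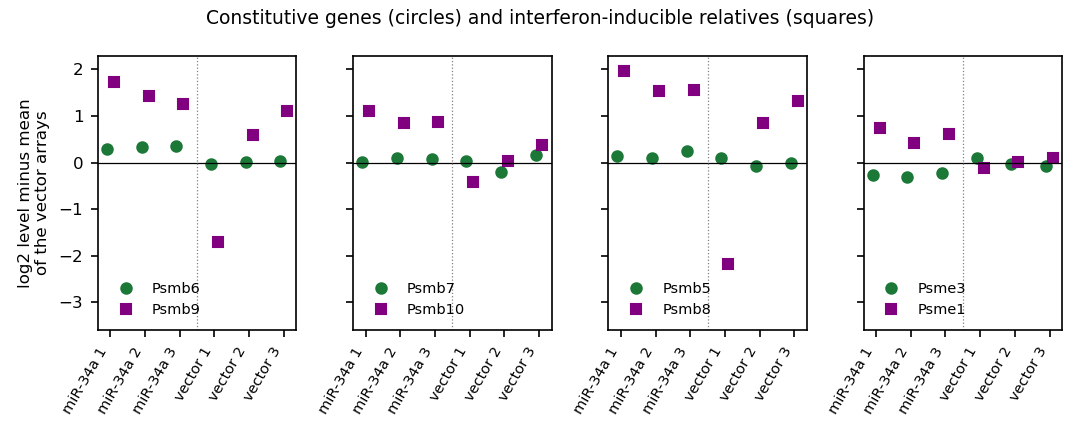
Level by array, as log2(intensity + 16) minus the vector mean (vertical), for the catalytic subunits Psmb6, Psmb7 and Psmb5 (circles) beside the inducible Psmb9, Psmb10 and Psmb8 that replace them (squares), and for Psme3 beside Psme1, which form different activators. Vector 1 lies far below the other arrays in Psmb8 and Psmb9, and the circles move by less than 0.4.

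Because Nfe2l1 rose, the promoters of the proteasome genes were searched for the letters of the antioxidant response element that NFE2L1 and NFE2L2 bind, TGACNNNGC. CCAAT and CGGAAG, the core letters of NF-Y and ETS family sites, were searched beside it. The window was 250 bases before to 50 bases after each gene start in the RefSeq promoter table of GRCm38.p6, on both strands, and motifs were counted separately even where matches overlapped. Of the 43 genes 35 were matched, with 37 promoters. TGACNNNGC stood in 6 of the 37 (16.2%), against 13.8% of the promoters of all tested genes and 12.4% of all promoters in the table. CCAAT stood in 13 (35.1%), against 37.1% and 37.4%. CGGAAG stood in 23 promoters of 22 genes (62.2%), against 25.2% and 16.9%.

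The genes with TGACNNNGC were Psmb5, Psmb6, Psmc6, Psmd9, Psmd12 and Psme4. Of these, 3 had separate groups with miR-34a higher, 2 had separate groups with miR-34a lower and 1 overlapped. The 22 genes with CGGAAG held 8 with separate groups and miR-34a higher, 6 with miR-34a lower and 8 that overlapped, among 14, 7 and 14 for all 35 genes with a promoter. The promoters below show the match of TGACNNNGC, in capitals, in a gene that was called higher (Psmb6), in 1 with separate groups and no call (Psmb5) and in 1 with a change below 0 (Psmc6, where it lies on the opposite strand). The promoter of Psma1, called lower, is shown with its 2 CCAAT matches in capitals. They lie at chr11:70525107-70525406 on the plus strand (Psmb6), chr14:54617946-54618245 on the minus strand (Psmb5), chr14:45329574-45329873 on the plus strand (Psmc6) and chr7:114276067-114276366 on the minus strand (Psma1), all in GRCm38.p6.
Psmb6: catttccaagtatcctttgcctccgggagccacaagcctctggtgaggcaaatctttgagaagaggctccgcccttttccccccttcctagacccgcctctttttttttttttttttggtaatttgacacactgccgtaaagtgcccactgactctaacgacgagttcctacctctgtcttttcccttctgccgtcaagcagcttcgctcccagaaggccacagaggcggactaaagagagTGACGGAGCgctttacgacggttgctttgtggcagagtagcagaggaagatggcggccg
Psmb5: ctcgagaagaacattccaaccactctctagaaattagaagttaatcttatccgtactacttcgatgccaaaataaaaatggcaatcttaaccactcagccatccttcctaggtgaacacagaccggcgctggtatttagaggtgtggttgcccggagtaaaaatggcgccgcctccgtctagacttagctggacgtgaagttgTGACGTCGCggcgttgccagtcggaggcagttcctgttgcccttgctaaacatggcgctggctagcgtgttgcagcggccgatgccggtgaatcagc
Psmc6: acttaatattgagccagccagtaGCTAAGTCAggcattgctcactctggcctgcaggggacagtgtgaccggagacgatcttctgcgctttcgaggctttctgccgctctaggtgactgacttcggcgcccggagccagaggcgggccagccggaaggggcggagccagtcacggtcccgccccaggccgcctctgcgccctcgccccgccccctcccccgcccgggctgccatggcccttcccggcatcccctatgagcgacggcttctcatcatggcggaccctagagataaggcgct
Psma1: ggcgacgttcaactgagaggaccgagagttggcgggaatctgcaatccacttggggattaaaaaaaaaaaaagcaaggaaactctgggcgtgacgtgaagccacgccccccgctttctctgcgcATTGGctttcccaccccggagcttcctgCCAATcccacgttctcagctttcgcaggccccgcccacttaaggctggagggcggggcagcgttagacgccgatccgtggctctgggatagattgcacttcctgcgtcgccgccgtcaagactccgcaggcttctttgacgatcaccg
Counted from the gene start, with negative numbers before it, the matches begin at -9 in Psmb6, -47 in Psmb5, -227 in Psmc6, and -126 and -98 in Psma1. A match describes the letters in this window and does not show a bound site, and binding was not measured in these samples.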

How the data were processed

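Biotin-labelled RNA of 6 samples was measured on Affymetrix mouse arrays, per the labels. The deposited values are intensities on a linear scale. How the authors summarised and normalized them is not given in the sources used here. The table holds 22690 probe sets and a lowest value of 1. Groups came from the sample titles and descriptions.

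Symbols of the platform annotation were brought up to date by Entrez identifier in the GRCm38.p6 RefSeq table. Of the probe sets, 20393 had 1 symbol, 691 several and 1606 none listed. For each of 12393 genes the single-symbol probe set of highest mean log2(intensity + 16) was used. The fit was limma 3.58.1 (lmFit, eBayes) under R 4.3.3 (two-sided, no block, Benjamini-Hochberg over all genes, threshold 0.05). The test was checked on simulated data. Figures used matplotlib 3.10.9.

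Members and lists were chosen with earlier results of these data known. Values in every array are given for members that passed, the largest change per class among the others, and a fixed set of catalytic, cap, chaperone and activator genes, with the passing genes of the partner lists. Other members are named, after their values were seen, to account for each. Alternatives were other scalings, pseudocounts of 1 and 64, probe set means, a lower filter, a variance trend, array weights, the replicate block, other thresholds and leaving out each array. Arrays with the same replicate number did not deviate together (r of -0.168, -0.0935 and -0.0812), so the numbers were not taken as pairs. With 3 arrays per group these r values cannot show that the arrays were unpaired. No 2 arrays held identical values. Precision is limited by having 3 arrays per group. Detection calls were not used, so dim genes such as Psma8 are not told apart from background. Promoters and microRNAs are from RefSeq.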

Additional observations from a re-analysis of the deposited data

How the results depend on the processing

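Of the 43 proteasome genes 3 passed with the settings of the report. The number was 4 with median centring (0 higher, 4 lower, with 11.6% of all genes called), 1 with the mean of all probe sets (11.9% of all genes called), 17 with array weights (26.1%), 0 with the replicate block (4.21%), 0 at an adjusted p of 0.01, 6 at 0.10, and 0 to 5 when 1 array was left out (1.82% to 17.2% of all genes), with 5 without vector 1. The shares of all genes at 0.01 and 0.10 are not given here. Of the partner and interferon-inducible genes 7 passed, where 11.7% of all genes were called. The number was 11 with array weights (26.1% of all genes), 2 with the replicate block (4.21%), 1 at an adjusted p of 0.01 and 1 to 7 when 1 array was left out (1.82% to 17.2%). The median change of 0.12 was 0.0294 with median centring and 0.0741 (without vector 2) to 0.142 when 1 array was left out, and the number of genes with separate groups was 14 with median centring, against 26. The cause was not tested. Quantile normalization gave 3 calls, where 11.7% of all genes were called. It gave 24 genes with separate groups (55.8%), against 35.3% of all genes. Leaving out Psmc3ip, chosen after seeing the data, gave 25 with separate groups.

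Among 31 named genes (21 members and 10 others) refitted under 15 settings, 398 of 465 refits kept the sign and the side of the threshold, 48 lost the call, 14 gained one and 5 changed sign without passing (Psmb7 and Psmf1). Most of the named genes had no call to lose, so the pooled count does not show how stable the calls were. Of the 15 settings, Psma1 lost its call in 9, Psmb6 in 7 and Psmd7 in 6. The replicate numbers were not taken as pairs, which is not settled, and the block gave 522 calls over all genes, against 1456 without it. No depth exists for arrays, and 3 arrays per group left an interval of -0.16 to 0.60 for Psma2 and of -0.82 to -0.24 for Psmd7.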
